A study of Rattus norvegicus with 50 samples.

Results

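The change from adolescence to young adulthood was measured by comparing the medial prefrontal cortex of Wistar rats at postnatal day 70 with that at postnatal day 35. The 10 libraries of day 70 and the 10 of day 35 were taken by their labels, 20 of the 50 libraries of the series, and genotype was kept as a block. Each age held 5 wild-type libraries and 5 from rats labelled as serotonin transporter (SERT) knock-outs. The 5 libraries of a group carry 3 different first numbers in their titles, so some share one, and the titles do not say what it stands for. All groups share the Wistar strain and no treatment is given for any. The sources used here give neither the sex of the rats nor how the transporter was inactivated. Whether each library came from its own rat is not stated, and p-values therefore measure only the spread between libraries, which may in part be technical. Expression is in FPKM (fragments for each kilobase of a transcript, relative to all fragments of the library), here after rescaling each library. The tables name genes by Ensembl identifier only, and none could be paired with a symbol, so genes are given by identifier without a function, and the transporter gene and markers of the tissue's cell types were not analysed here.

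As background, the prefrontal cortex is among the last cortical areas to mature. Through adolescence its excitatory synapses are pruned, its axons go on being myelinated, its inhibitory interneurons take on adult properties, and its serotonin and dopamine innervation is refined. The serotonin transporter clears serotonin from the extracellular space, and rats without it have raised extracellular serotonin from early in life. In RNA from whole tissue, a lower level of a transcript can come from fewer cells of a type or from less RNA per cell, and these cannot be told apart.

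Read depth could be recovered only as a ratio between libraries, from the steps between low values. In the 20 libraries it ran from 0.460 to 1.33 times that of the median library of the series, with medians of 0.991 at day 35 and 0.936 at day 70. The total of the deposited FPKM ran from 569671 to 2141920 at day 35 (median 1044260) and from 330440 to 1216790 at day 70 (median 857280). Of this total, 61.7% to 82.2% at day 35 and 51.1% to 80.2% at day 70 lay in the 50 rows with the highest values of each library. Knockout libraries 9-3 of day 35 and 5-3 of day 70, with the highest and the lowest total, lay at opposite ends of the first principal component of the 20 libraries (28.6% of the variance), and knockout library 7-3 of day 35 stood apart on the second (13.0%). A median of 10 FPKM or more over the 20 libraries was reached by 4857 rows, of which 10 were listed at exactly 0 in some library.

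Of 14779 genes tested, 319 (2.16%) changed from adolescence to adulthood, 135 upward and 184 downward (limma, Benjamini-Hochberg adjusted p under 0.05). Rising genes made up 0.913% of those tested and falling genes 1.25%. Most of these changes were small. The median log2 change was 0.35 for the rising and -0.31 for the falling genes, and 12 of the rising and 22 of the falling genes changed more than 1.5-fold (0.230% of the tested genes in all). Changes of more than 2-fold were called for 4 rising (0.0271%) and 9 falling genes (0.0609%). The median absolute log2 change over all tested genes was 0.091, the median change was 0.00, and 2475 genes had an unadjusted p under 0.05. The count moved with the processing and with single libraries. It was 61 as deposited, 38 with libraries averaged by the first number of their title and 622 with array weights. When that number was instead entered as a random term, it was 386, with all 319 genes kept. In that fit the correlation between libraries sharing the number was -0.056. With quantile normalization the count held 128 rises and 130 falls. Without the 3 libraries that stood apart, a choice made after seeing the data, it was 221, with 86 rises and 135 falls, and 179 of the 319 genes were kept. It was 204 without knockout library 5-2 and 207 without 6-1 of day 70, 205 without wild-type library 10-4 and 203 without 11-4 of day 35, 207 without wild-type library 3-3 of day 70, and 548 without wild-type library 8-4 of day 35.

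The same fit on each earlier pair of ages called more genes. It called 6556 genes between days 8 and 14 (44.4% of those tested), 5208 between days 14 and 21 (35.2%) and 1642 between days 21 and 35 (11.1%), the last made up of 804 rises (5.44%) and 838 falls (5.67%). Changes of more than 2-fold were called for 498, 179 and 15 genes in these intervals, against 13 between days 35 and 70. The median absolute log2 change fell from 0.22 to 0.17, 0.11 and 0.091 over the 4 intervals, which differ in length. The difference between intervals was not tested, since neighbouring intervals share the libraries of one age. Without rescaling, 1836 genes rose and 3431 fell between days 14 and 21, in place of 2588 and 2620.

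**Figure D1:**
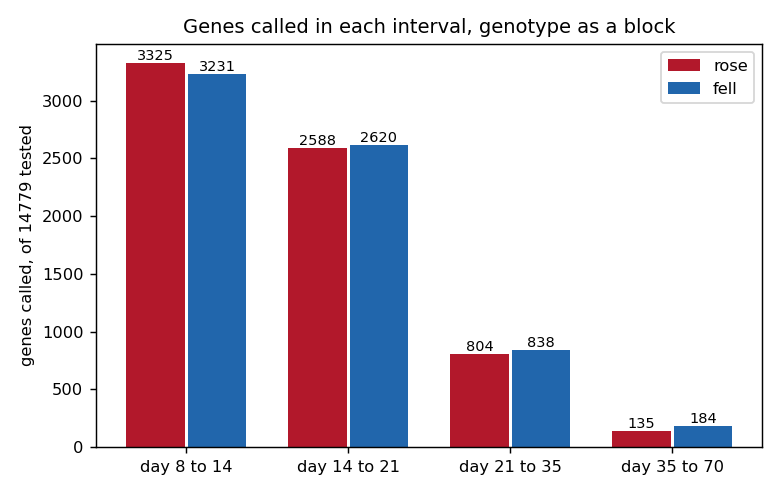
Number of genes called as rising (red bars) and falling (blue bars) between consecutive ages, out of 14779 tested, each from a fit on the 20 libraries of the 2 ages with genotype as a block. The bars fall from 3325 and 3231 genes between days 8 and 14 to 135 and 184 between days 35 and 70.

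The precision of the comparison can be read from the intervals of the single genes. The median standard error of the log2 change was 0.084. For 13017 genes, 88.1% of those tested, the 95% interval of the change lay within a 1.5-fold rise or fall, and for 93.9% it lay within 2-fold. These intervals are on the scale of log2(FPKM + 0.5), which understates the change of genes with low levels, and they are not adjusted for the number of genes.

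Some called genes separated the ages in every library. In 16 genes all 10 libraries of day 70 lay above all 10 of day 35, 0.108% of the genes tested, and in 27 all lay below (0.183%). All 43 of them were among the called genes. The 16 genes had log2 changes from 0.21 to 0.66 and mean levels between 0.752 and 30.2 FPKM. The 27 genes had log2 changes from -2.12 to -0.20 and mean levels between 0.441 and 364.7 FPKM. Among the changes over 2-fold, all 4 rises overlapped between the ages, and 5 of the 9 falls did not.

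The median of the mean level was 3.53 FPKM for the rising and 10.5 FPKM for the falling genes. Below 1 FPKM, 10 of 1649 genes rose and 15 fell. Among the 8156 genes with 1 to 10 FPKM, 100 rose and 74 fell. Among the 4511 genes with 10 to 100 FPKM, 25 rose and 82 fell, and among the 463 with 100 FPKM or more, 0 rose and 13 fell. The values as deposited kept the direction of this split, while quantile normalization turned it between 10 and 100 FPKM. With quantile normalization 74 genes rose and 72 fell between 1 and 10 FPKM, 45 rose and 40 fell between 10 and 100 FPKM, and 1 rose and 3 fell at 100 FPKM or more, while as deposited the 3 ranges held 22 and 16, 1 and 8, and 0 and 4. With quantile normalization 107 of the 135 rising and 119 of the 184 falling genes were still called, and as deposited 25 and 35 were.

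**Figure D2:**
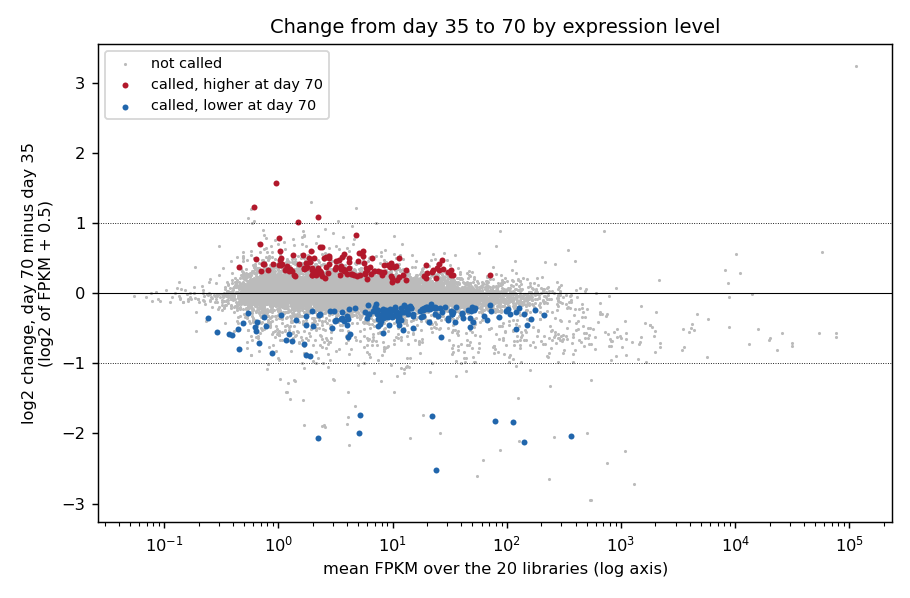
Log2 change from day 35 to 70 (vertical axis, log2 of FPKM + 0.5, genotype as a block) against the mean level over the 20 libraries (horizontal log axis, FPKM), 1 point per tested gene, with called genes in red (higher at day 70) and blue (lower) and dotted lines at a 2-fold change. The 9 falls of more than 2-fold lie apart from the other called falls, while many grey points with large changes did not pass the test.

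ENSRNOG00000031686 showed one of the largest falls. Its wild-type level at day 35 was 171, 360.4, 159.6, 207 and 324 FPKM in libraries 10-2, 10-4, 11-1, 11-4 and 8-4, and at day 70 it was 63.5, 65.4, 29.1, 26.3 and 56.8 FPKM in libraries 2-2, 2-3, 3-1, 3-3 and 4-1. In knockout rats it was 136, 363, 273, 198 and 134 FPKM at day 35 in libraries 12-3, 7-2, 7-3, 9-3 and 9-5, and 82.0, 55.4, 49.5, 42.5 and 51.2 FPKM at day 70 in libraries 1-2, 5-2, 5-3, 6-1 and 6-2. All 10 libraries of day 70 lay below all 10 of day 35, whose lowest was 134 FPKM. The log2 change was -2.12 ± 0.23 (SE; limma adjusted p = 4.81e-05), with -2.35 in wild-type and -1.90 in knockout rats. The call held in each of 33 alternative settings, with limma adjusted p from 4.17e-07 to 0.0210. Over both genotypes the level averaged 111, 80.0 and 268 FPKM on days 8, 14 and 21, against 52.2 FPKM on day 70. At day 14 the genotypes stood apart, with a mean of 46.0 FPKM in knockout libraries (30.5 to 59.2) and of 114 FPKM in wild-type libraries (83.0 to 163), so that in knockout rats the mean of day 70, 56.1 FPKM, lay above that of day 14. In libraries that the late comparison did not use, the gene rose from day 14 to 21 by a log2 change of 1.70 (limma adjusted p = 0.000321).

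ENSRNOG00000034900 had the largest fitted fall but varied widely at day 35. Its wild-type level at day 35 was 14.7, 88.8, 1.91, 60.8 and 8.94 FPKM in the same order of libraries, and at day 70 it was 10.4, 3.21, 3.19, 7.36 and 4.57 FPKM. In knockout rats it was 113, 11.8, 69.3, 37.3 and 22.3 FPKM at day 35 and 12.3, 2.70, 1.28, 1.55 and 4.38 FPKM at day 70. The ages overlapped, and 2 of the 10 libraries of day 70 lay below all those of day 35, since wild-type library 11-1 of day 35, at 1.91 FPKM, lay within the range of day 70. The log2 change was -2.51 ± 0.62 (SE; limma adjusted p = 0.0414), with -1.66 in wild-type and -3.36 in knockout rats. Neither genotype passed alone (limma adjusted p = 0.772 and 0.122). The call over both genotypes was lost in 20 of 33 alternatives, with limma adjusted p from 0.00787 to 0.143. When single libraries were left out, the call was lost for 15 of the 20. It was also lost without the 3 libraries that stood apart (log2 change -2.13, limma adjusted p = 0.143). Day 35 was the high point of this gene, with 42.9 FPKM on average against 5.04, 3.07 and 7.81 on days 8, 14 and 21 and 5.09 on day 70.

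Among the rising genes, ENSRNOG00000011648 was low at day 35 in every library. In the same order of libraries, it stood at 0.808, 0.892, 0.902, 1.04 and 0.551 FPKM in wild-type and at 0.460, 0.712, 1.00, 0.604 and 0.893 FPKM in knockout libraries of day 35. At day 70 it stood at 3.35, 2.52, 1.25, 1.70 and 3.11 FPKM in wild-type and at 2.11, 3.04, 2.30, 0.902 and 1.67 FPKM in knockout libraries. In 9 of the 10 libraries of day 70 it exceeded every library of day 35, and knockout library 6-1 was the exception. The log2 change was 1.02 ± 0.16 (SE; limma adjusted p = 0.00159), with 1.06 in wild-type and 0.98 in knockout rats. Neither genotype passed alone (limma adjusted p = 0.0880 and 0.0971). The call over both genotypes held in each of the 32 alternatives in which the gene was tested, with limma adjusted p from 3.18e-06 to 0.0298. Its means were 0.656 FPKM on day 8, 0.673 on day 14 and 0.538 on day 21, and its log2 change from day 8 to 21, in libraries not used for the late comparison, was -0.15 (limma adjusted p = 0.224).

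ENSRNOG00000035467 had the largest fitted rise among called genes that averaged 1 FPKM or more and moved the same way in both genotypes. In that order of libraries, it stood at 2.84, 0.660, 1.15, 1.23 and 1.66 FPKM in wild-type and at 0.824, 0.592, 1.94, 0.908 and 0.526 FPKM in knockout libraries of day 35. At day 70 it stood at 4.49, 6.19, 2.30, 3.54 and 0.847 FPKM in wild-type and at 2.32, 3.24, 1.54, 3.73 and 4.21 FPKM in knockout libraries. The ages overlapped, with 6 of the 10 libraries of day 70 above all those of day 35. From day 35 to 70 the log2 change was 1.08 ± 0.27 (SE; limma adjusted p = 0.0393), with 0.88 in wild-type and 1.28 in knockout rats. Neither genotype passed alone (limma adjusted p = 0.641 and 0.182). The call over both genotypes was lost in 18 of 33 alternatives, with limma adjusted p from 0.00529 to 0.277. When single libraries were left out, the call was lost for 14 of the 20.

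**Figure D3:**
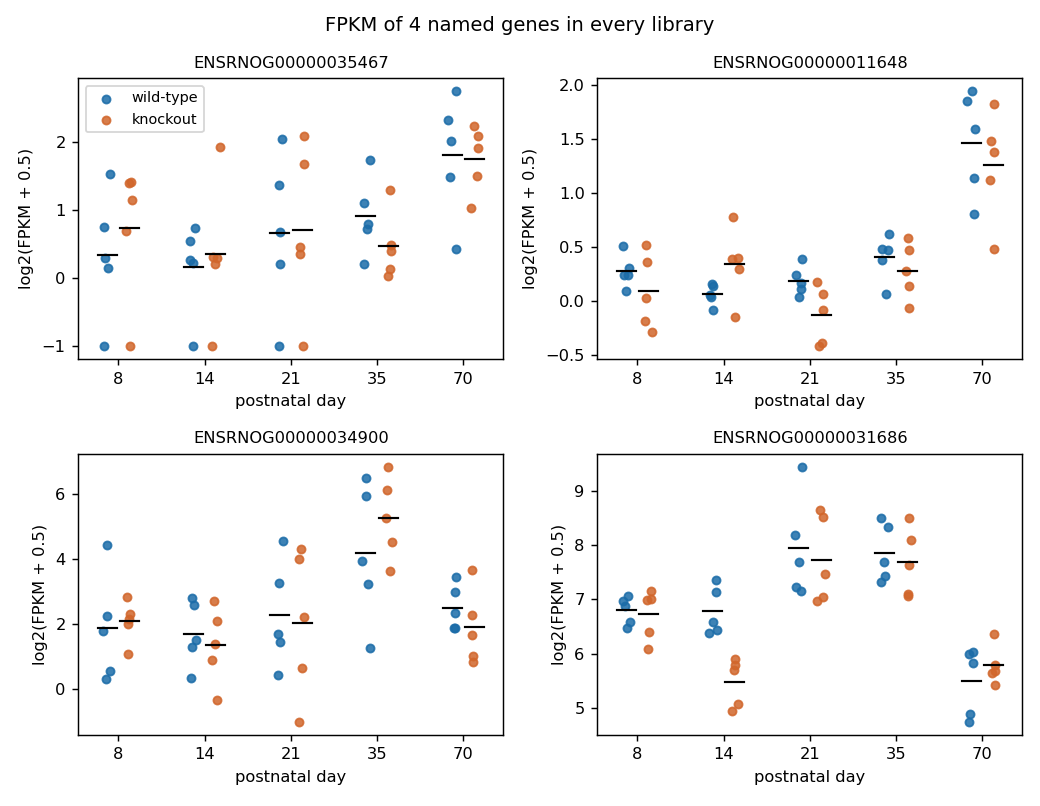
Level of 4 genes in all 50 libraries, as log2(FPKM + 0.5), against postnatal day, with wild-type libraries in blue, knockout libraries in orange, 1 point per library and a black line at the mean of each group of 5. ENSRNOG00000031686 is lower in all day 70 libraries than in all day 35 libraries, and ENSRNOG00000011648 is higher in 9 of 10.

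Fitted falls of more than 2-fold numbered 69, of which 9 were called, and fitted rises numbered 12, of which 4 were called. The 9 called falls lay apart from the other called falls in size. Their log2 changes ran from -2.51 to -1.73, and the next largest called fall was -0.90. The 9 genes had mean levels between 2.20 and 364.7 FPKM. The fitted change was below 0 for all 9 in both genotypes, with log2 changes from -2.35 to -1.56 in wild-type and from -3.36 to -1.35 in knockout rats. In the earlier libraries, 4 of the 9 fell and 0 rose from day 8 to 14, with log2 changes over all 9 from -0.83 to -0.18. The mean level of the 9 at day 14 was lower in knockout rats, where the median library lay at -0.89 log2 units relative to each gene's mean over the 50 libraries, than in wild-type rats, where it lay at -0.13, a difference that was not tested for this set. From that level 6 of the 9 rose from day 14 to 21, with log2 changes over all 9 from 0.63 to 1.70, and 4 rose and 0 fell from day 8 to 21. Of all tested genes, 21.9% fell from day 8 to 14, 17.5% rose from day 14 to 21 and 30.4% from day 8 to 21, and 61.5% changed in either direction from day 8 to 21. Within groups, the pairwise correlations of the 9 genes' deviations from the group means ran from -0.29 to 0.94 (median 0.39, 20 libraries, 36 pairs). Among the 5 falls without overlap between the ages they ran from 0.44 to 0.94 (median 0.74, 10 pairs). Pairs of overlapping falls had a median of 0.35 (6 pairs), and mixed pairs one of 0.16 (20 pairs). The genes of such a pair share library, depth and scaling, and the correlation of the 9 genes with the total FPKM of the library ran from -0.15 to 0.51. With the total as a covariate 7 of the 9 were called, without the 3 libraries that stood apart 6 were, as deposited 6 were, and with libraries averaged by title number 4 were. The covariate and the choice of the 3 libraries were added after seeing the data.

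The 4 rises of more than 2-fold were of genes with low levels, between 0.605 and 2.24 FPKM on average, and had log2 changes from 1.02 to 1.56. None of these 4 passed for the change from day 8 to 14, from day 14 to 21 or from day 8 to 21 (limma, log2 changes from -0.29 to 0.43). From day 21 to 35, an interval that shares the libraries of day 35, 1 rose, with log2 changes over all 4 from -0.69 to 0.31. The largest late rise started from a low day 35, with means of 0.809, 0.233 and 1.65 FPKM on days 21, 35 and 70. The next largest did so too, with 0.854, 0.112 and 1.10 FPKM. The others had means of 1.55, 1.23 and 3.24 FPKM and of 0.538, 0.787 and 2.20 FPKM on these days.

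A question of the design was whether this late change depended on the transporter. Within wild-type rats 8 genes rose (0.0541% of those tested) and 20 fell (0.135%), 0.189% together. Within knockout rats 10 rose (0.0677%) and 13 fell (0.0880%), 0.156% together. Without rescaling, wild-type rats had 2 rises and 9 falls and knockout rats 2 and 7. With quantile normalization the counts were 6 and 14 for wild-type but 8 and 6 for knockout rats, so that the majority in knockout rats turned with the scaling. The knockout total of 23 was 0 with libraries averaged by title number (limma, 1444 genes with an unadjusted p under 0.05), 83 with array weights (48 rises and 35 falls) and 102 with the total FPKM as a covariate. It fell to 7 without the 3 libraries that stood apart, to 7 without library 7-2 of day 35 or 5-2 of day 70, and to 8 without 5-3 of day 70, and it rose to 41 without wild-type library 11-4 of day 35. The wild-type total of 28 fell to 12 without wild-type library 3-3 of day 70 and to 13 without 10-4 of day 35. Genes called in one genotype were then looked up in the other, whose libraries had no part in the fitted change. All 8 wild-type rises had a change above 0 in knockout rats, with a median log2 change of 0.64 in wild-type and 0.46 in knockout rats, against 50.6% of all tested genes above 0 in knockout rats. Of the 20 that fell in wild-type rats all 20 were below 0 in knockout rats, with medians of -0.70 and -0.57. Of the genes called in knockout rats, 9 of 10 rising genes and all 13 falling genes had the same sign in wild-type rats, where 48.9% of all tested genes were above 0. Calls in both genotypes were made for 4 rising and 8 falling genes, and 0 were called in opposite directions. The fits share one estimate of the spread per gene, so the calls in the 2 genotypes are not fully independent.

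The difference of the late change between genotypes was tested directly, and no gene passed (limma, 0.00% of those tested). Among the tested genes 312 had an unadjusted p under 0.05, 2.11% of them, and among the 319 genes called over both genotypes 11 did. If no gene differed, about 739 of the tested genes would have such a p. The median 95% interval of this difference reached 0.35 log2 units to either side before adjustment for the number of genes, so a difference had to be larger than that to pass in a gene of median precision. Without knockout library 1-2 of day 70, or without a filter on low values, 1 gene passed.

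**Figure D4:**
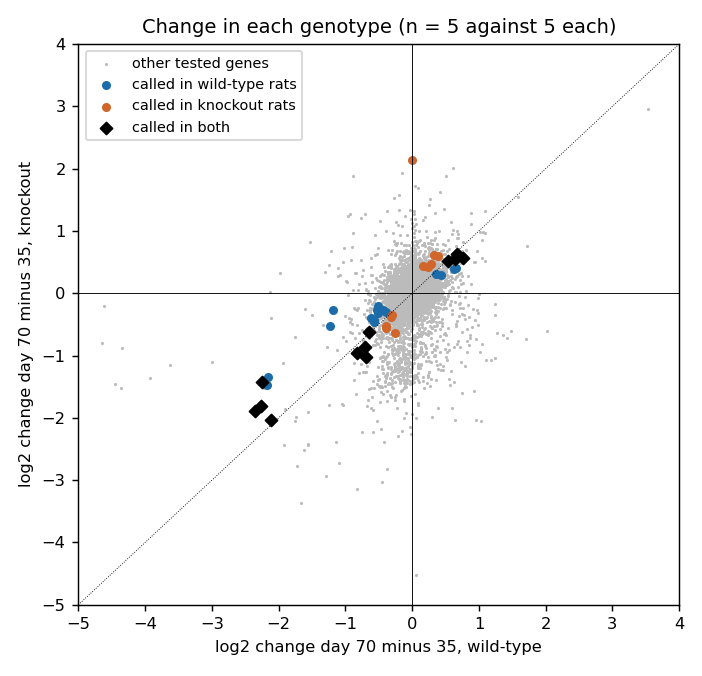
Log2 change from day 35 to 70 in knockout rats (vertical axis) against that in wild-type rats (horizontal axis), 1 point per tested gene, with genes called in one genotype in blue or orange, those called in both as black diamonds, and a dotted line at equal change. Of the genes called in both, 4 lie above 0 and 8 below 0 on both axes, and a group of uncalled genes lies far below 0 on the knockout axis.

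Many genes had large fitted falls in knockout rats without passing the test. The fitted change was a fall of more than 2-fold for 314 genes in knockout rats, of which 5 were called, and for 54 in wild-type rats, of which 8 were called. The levels of the 309 uncalled genes differed between libraries of one group. Relative to their own mean over the 20 libraries they lay on average 2.10 log2 units higher in knockout library 9-3 and 1.22 higher in 12-3 of day 35, but -0.49 in library 9-5 of the same group. In knockout libraries of day 70 they lay at -1.94 in library 5-3, -1.33 in 6-1 and -0.88 in 6-2, but at 0.46 in 1-2 and 0.29 in 5-2. The highest and the lowest of these libraries, 9-3 and 5-3, also had the highest and the lowest total FPKM, 2141920 and 330440, and the part of the total in the fitted falls was not tested beyond the 2 settings that follow. Wild-type libraries had the same kind of spread within one age, from -1.19 in library 11-1 to 1.06 in 10-4 at day 35. Without the 3 libraries that stood apart the fitted falls over 2-fold in knockout rats numbered 100, and with the total FPKM as a covariate 77. These genes were chosen for their fitted fall, and their values are a description.

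The genes called between days 35 and 70 were followed back through the first weeks of life, in libraries that had no part in the late comparison. A majority of the late rises followed an earlier rise. Of the 135 genes that rose late, 79 had risen and 21 had fallen between days 8 and 21, which is 58.5% and 15.6%, against 30.4% and 31.1% of all tested genes. From day 14 to 21, 73 had risen and 5 had fallen (54.1% and 3.70%, against 17.5% and 17.7% of all tested genes), while from day 8 to 14, 38 had risen and 25 had fallen (28.1% and 18.5%, against 22.5% and 21.9%). The median log2 change of the 135 genes was 0.04 from day 8 to 14 and 0.29 from day 14 to 21.

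Late falls had a more mixed past. Of the 184 genes that fell late, 68 had risen and 69 had fallen between days 8 and 21, 37.0% and 37.5%. From day 8 to 14, 71 had risen and 39 had fallen (38.6% and 21.2%, against 22.5% and 21.9% of all tested genes), and from day 14 to 21, 30 had risen and 83 had fallen (16.3% and 45.1%, against 17.5% and 17.7%). The median log2 change was 0.10 from day 8 to 14 and -0.16 from day 14 to 21. Calling favours genes with a small spread between libraries in every interval, and the part of this in the shares was not tested. Without rescaling, 71 late rises had risen and 25 had fallen from day 8 to 21, and 60 late falls had risen and 78 had fallen, while 3675 of all tested genes had risen and 5557 had fallen.

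Between days 21 and 35, which shares the libraries of day 35 with the late comparison, 47 of the late rises had risen and 3 had fallen, and 74 of the late falls had fallen and 4 had risen, against 5.44% of all tested genes that rose and 5.67% that fell. Over the 5 ages, 121 of the 135 late rises had their highest mean at day 70, and the lowest mean fell on day 8 for 70 of them, day 14 for 33, day 21 for 10 and day 35 for 22. Of the 184 late falls, 140 had their lowest mean at day 70, and the highest mean fell on day 8 for 59 of them, day 14 for 65, day 21 for 41 and day 35 for 19. Of the other late falls, 40 were lowest at day 8 and 4 at day 14. Over all tested genes, day 70 lay above days 8, 14 and 21 in 31.4% and below all of them in 30.6%. The late rises and falls were chosen for their difference between days 70 and 35, which favours an extreme mean at day 70. Their counts at day 70 are therefore a description.

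The mean level of each set in the single libraries followed these courses. For the 135 late rises, relative to each gene's mean over the 50 libraries, the median wild-type library of the 5 ages, from the youngest to the oldest, lay at -0.41, -0.29, -0.01, 0.16 and 0.53 log2 units. The knockout medians were -0.36, -0.35, 0.00, 0.14 and 0.57. For the 184 late falls the wild-type medians were 0.13, 0.28, 0.13, -0.03 and -0.46, and the knockout medians 0.10, 0.21, 0.12, -0.06 and -0.50. The separation of days 35 and 70 is given by the choice of these genes and is no evidence of its own.

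**Figure D5:**
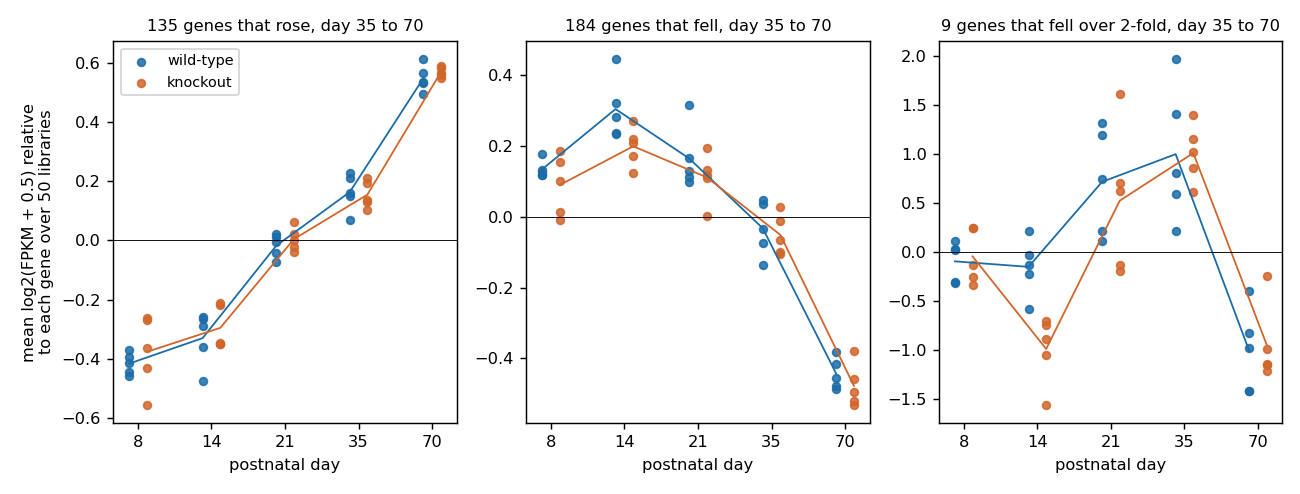
Mean level of 3 sets of genes in every library (vertical axis, log2(FPKM + 0.5) relative to each gene's mean over the 50 libraries) against postnatal day, with wild-type libraries in blue, knockout libraries in orange and lines through the group means. The 135 late rises climb from day 14 onward, the 184 late falls are highest at day 14, and the 9 largest called falls are highest at days 21 and 35, with a wide spread between libraries of a group.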

How the data were processed

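Per the labels' protocols, total RNA was depleted of ribosomal RNA and read in single-end runs of 50 bp. The same protocols name gsnap and the rn4 assembly, and the submitters' processing notes name BWA 0.6.1, bedtools and Cufflinks. The aligner behind the tables, the annotation and the use of strand are not given in the sources used here, so overlapping genes may share reads. The authors deposited FPKM in one table per genotype, with 29516 Ensembl identifiers, 0 of which matched the reference used here, and 0 columns stayed unmatched.

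Libraries were rescaled by the median of their ratios to the geometric mean of the 50 libraries (factors 0.829 to 1.20, from 15296 rows above 0 in all). Genes averaging 0.5 FPKM or more over the 50 libraries were tested. A model of genotype and age was fitted to log2(FPKM + 0.5) of the 20 libraries with limma 3.58.1 in R 4.3.3 (trend and robust moderation, 17 residual degrees of freedom). Changes within genotypes and their difference came from a fit of 4 group means. Calls used an adjusted p under 0.05 over all tested genes. Relative depth came from 4202 rows above 0 in few libraries. In the median pair 97.8% of their ratios were within 0.02 log2 units of those of small whole numbers. The other software was Python 3.11.15, pandas 2.3.3, numpy 2.4.6 and matplotlib 3.10.9. The test was also run on simulated data, with noise drawn independently for each gene. Such data lack shifts shared by many genes of a library, so they cannot give the error rate of the real comparison.

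The named genes are the 2 largest rises and 2 largest falls among called genes averaging 1 FPKM or more in the 20 libraries, with the same sign in both genotypes. Lists of cell type and pathway genes could not be applied without symbols. Members, lists and rules were chosen with earlier results of these data known. Alternatives changed the pseudocount, filter, scaling, samples fitted, weights, moderation, the use of title numbers and each library in turn.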

Additional observations from a re-analysis of the deposited data

Results flagged for a closer look

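In 24 checks for a library far from the others of its group of 5, 2 were flagged, and chance flags about 1 in 20. The checks used the same groups of libraries more than once, so they are not independent. ENSRNOG00000035467 stood at 1.94 FPKM in knockout library 7-3 of day 35, while the other libraries of that group lay between 0.526 and 0.908. ENSRNOG00000034900 stood at 12.3 FPKM in knockout library 1-2 of day 70, while the others lay between 1.28 and 4.38.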

How the results depend on the processing

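The count of 319 genes over both genotypes stayed within 1.5 times in 24 of 33 alternatives. It was 61 as deposited, 622 with array weights and 38 with libraries averaged by the first number of their title. With that number entered as a random term it was 386. It ran from 203 to 548 with 1 library left out, with 197 to 312 of the 319 genes kept. The wild-type count of 28 was 11 as deposited, 50 in the fit of all 50 libraries, 80 with array weights and 5 averaged by title number, and 12 to 29 with 1 library left out (15 without wild-type library 10-2, 18 without 3-1 and 16 without 4-1). The knockout count of 23 was 45 without a filter, 9 as deposited, 14 with quantile normalization, 45 in the fit of all libraries, 83 with array weights, 35 with the title number as a random effect and 0 averaged by it (limma, 1444 genes with an unadjusted p under 0.05). It was 7 without the 3 libraries that stood apart and 102 with total FPKM as a covariate, both chosen after seeing the data, and 7 to 41 with 1 library left out (14 without knockout library 12-3, 11 without 7-3, 12 without 6-1 and 13 without 6-2). The difference between genotypes called 1 gene without a filter and 0 to 1 with 1 library left out. Averaging by title number leaves fewer samples in the fit, and for the other settings the cause was not tested. The counts of the earlier intervals stayed within 1.5 times in the 5 alternatives run for each. No paired analysis was possible because no replicate number of the titles occurs in more than 1 group.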

Other observations

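ENSRNOG00000045270, chosen after its values were seen, was called as a rise in knockout rats (limma adjusted p = 0.0198). It was listed at 0 in 16 of the 20 libraries, among them all 10 wild-type libraries and all 5 knockout libraries of day 35, and was above 0 in 4 of the 5 knockout libraries of day 70. Its mean over the 50 libraries reached the filter of 0.5 FPKM, so it was also above 0 in some younger libraries, whose values are not given here. The difference of its change between genotypes did not pass (limma adjusted p = 0.999, unadjusted p = 0.000537), nor did its change over both genotypes (limma adjusted p = 0.128).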
